A study of Mus musculus with 6 samples.

Results

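The genes described are the nuclear genes for subunits of oxidative phosphorylation in the livers of Gpr146 knockout and wild-type mice. Members were the genes whose single platform symbol starts with Ndufa, Ndufb, Ndufc, Ndufs, Ndufv, Sdh, Uqcr, Cox4 to Cox8 or Atp5. The Ndufaf and Sdhaf assembly factors were left out, and each gene was read from its probe set with the highest mean. This gave 81 of 22180 genes, of which 69 lay in the upper 50% of mean signal and were tested with 11090 genes in all. By complex, 32 of 34 members were tested for complex I, 4 of 4 for complex II, 7 of 8 for complex III, 11 of 17 for complex IV and 15 of 18 for complex V.

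The 6 livers came from single male mice of a C57BL/6J background, 24 weeks old and kept on chow. The wild-type (WT) group held 3 mice and the whole-body Gpr146 knockout (KO) group held 3 of their littermates. Both groups had been fasted for 16 hours and then refed for 6 hours. Gpr146 is a G protein-coupled receptor; since the knockout is labelled as whole-body, effects that arise in the liver and in other tissues cannot be told apart. Each mouse gave 1 Affymetrix whole-transcript array, and all values are log2 signals.

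In background, oxidative phosphorylation passes electrons from NADH through complex I and from succinate through complex II to ubiquinone, then through complex III, cytochrome c and complex IV to oxygen. Complexes I, III and IV pump protons across the inner mitochondrial membrane, and complex V, the ATP synthase, uses the gradient to make ATP. Hepatocytes are rich in mitochondria, and gluconeogenesis, urea synthesis and fatty acid oxidation in liver all draw on this chain. Most subunits are encoded in the nucleus; those encoded in mitochondrial DNA were not analysed here.

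The nuclear subunit genes are textbook targets of the transcription factors NRF1, GABP (an ETS-family factor) and YY1. A RefSeq promoter (GRCm38.p6, 250 bases before to 50 after the annotated start) was matched for 59 of the 69 tested members, using the first promoter listed per gene. The letters TGCGCA, the palindromic core of NRF1 sites, were in 15 of these promoters (25.4%), against 13.9% of 8732 promoters of tested genes and 8.06% of all 27025 promoters. The ETS core CCGGAA or its reverse complement TTCCGG was in 26 (44.1%), against 27.4% and 15.2%. The YY1 core ATGGCG or CGCCAT was in 15 (25.4%), against 15.7% and 9.24%. The YY1 match lay before the annotated start in Ndufa1, Ndufa5, Ndufa7, Ndufb11, Cox5a, Cox7c and Atp5c1. In the others it lay past the start, at base 262 of 300 in Cox6a1, 267 in Atp5b, 270 in Ndufb5 and 276 in Ndufc1. It was at base 277 in Ndufab1, 278 in Ndufs7, 283 in Ndufa9 and 289 in Ndufs4, also past the start. ATG is also the start codon, and whether the matches past the start are coding sequence was not analysed. At least 1 of the 3 motifs was in 47 (79.7%), against 45.5% of tested genes and 27% of all promoters. Median GC content was 58.7% for the members and 60.7% for tested genes. By complex, the ETS core was in 10 of 29 promoters for complex I, 2 of 3 for II, 3 of 4 for III, 4 of 10 for IV and 7 of 13 for V. Overlaps between motifs were allowed, and a match describes letters only.

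Promoters of 4 members are given in lower case with the motif letters in capitals. Atp5o and Atp5g2 had the lowest and the highest difference among the members tested, while Sdhd and Cox6a1 carry several of the motifs. Atp5o lies at chr16:91931581-91931880, Atp5g2 at chr15:102670998-102671297, Sdhd at chr9:50603800-50604099 and Cox6a1 at chr5:115348909-115349208, all on the minus strand. Atp5o holds a single ETS core and Atp5g2 a single NRF1 core; Sdhd holds 2 of each, and Cox6a1 holds 1 of each of the 3 motifs.
Atp5o: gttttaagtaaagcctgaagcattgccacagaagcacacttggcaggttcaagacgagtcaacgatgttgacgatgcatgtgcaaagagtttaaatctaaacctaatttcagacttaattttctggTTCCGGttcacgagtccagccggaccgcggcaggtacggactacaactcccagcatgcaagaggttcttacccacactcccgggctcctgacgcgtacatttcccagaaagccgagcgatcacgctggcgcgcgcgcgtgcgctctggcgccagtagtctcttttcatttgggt
Atp5g2: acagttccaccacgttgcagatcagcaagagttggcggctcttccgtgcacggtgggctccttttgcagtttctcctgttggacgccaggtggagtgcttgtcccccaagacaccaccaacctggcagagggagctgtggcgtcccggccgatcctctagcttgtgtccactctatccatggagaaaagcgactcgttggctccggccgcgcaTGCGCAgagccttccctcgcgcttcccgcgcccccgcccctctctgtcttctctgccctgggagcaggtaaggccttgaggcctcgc
Sdhd: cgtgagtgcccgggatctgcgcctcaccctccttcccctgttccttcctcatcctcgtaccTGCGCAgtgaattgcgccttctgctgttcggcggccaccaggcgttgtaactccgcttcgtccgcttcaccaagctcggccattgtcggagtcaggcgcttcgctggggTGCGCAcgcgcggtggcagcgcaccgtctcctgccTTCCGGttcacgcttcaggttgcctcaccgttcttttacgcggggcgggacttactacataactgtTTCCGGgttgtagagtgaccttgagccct
Cox6a1: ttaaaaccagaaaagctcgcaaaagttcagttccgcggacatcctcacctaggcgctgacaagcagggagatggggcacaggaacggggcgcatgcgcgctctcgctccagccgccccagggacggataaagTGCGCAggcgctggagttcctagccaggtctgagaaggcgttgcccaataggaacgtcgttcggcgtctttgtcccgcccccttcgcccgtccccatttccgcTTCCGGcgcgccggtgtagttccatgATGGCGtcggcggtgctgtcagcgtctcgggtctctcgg

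Array medians lay between 2.67 and 2.73, and arrays correlated pairwise at 0.983 to 0.988. Gpr146 signal was at 5.72 ± 0.21 in WT and 4.25 ± 0.37 in KO (SD, n = 3 each), with no overlap; the difference of -1.47 ± 0.19 (SE) had an adjusted p of 0.0702 in limma. The KO signal, 3.87 to 4.61 in single mice, stayed above the filter of 2.99; which part of the gene the probes cover was not analysed here. Alb, the albumin gene that defines hepatocytes, was at 11.93 ± 0.025 and 11.91 ± 0.011. Of 73 marker genes listed for hepatocytes and 9 other cell types, 43 were tested, 0 passed the adjusted threshold and 1, the bile duct marker Sox9 at 0.41, had an unadjusted limma p under 0.05. Of the other bile duct markers, Krt7 was at 0.15 and did not pass, and Krt19, Epcam and Cftr were below the signal filter. The 8 tested hepatocyte markers differed by -0.085 to 0.092. In whole liver, fewer cells of a type and less RNA per cell cannot be told apart.

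The comparison of KO with WT livers asks whether loss of the receptor went with another level of the respiratory chain transcripts after refeeding. The members did not change past any threshold. In limma, 0 of 69 passed the adjusted threshold, where 0.0361% of all genes tested did, and 0 of 69 had an unadjusted p under 0.05, where 9.13% of all genes tested did. The median difference, KO minus WT, was -0.0030 on the log2 scale, beside 0.027 over all genes tested, with 34 members above 0 and 35 below. The middle of the members' differences was narrow, from -0.055 to 0.052 between quartiles, beside -0.068 to 0.13 for all genes tested. A difference larger than 0.2 in either direction was seen in 4 of 69 members, Atp5o, Atp5d, Ndufb9 and Atp5g2, where 20.8% of all genes tested had one.

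The median SE of a difference was 0.10 for the members and 0.11 for all genes tested. The eBayes step draws the variances towards a common value, which brings such SEs closer together. The median SD within a genotype, which is not moderated, was 0.11 for the members and 0.14 for all genes tested. The members were also bright: 62 of the 69 lay in the upper 25% of signal, as did 5545 of the 11090 genes tested. They were not compared with genes of like signal. The 95% interval lay inside a fold of 1.5 in either direction for 68 of 69 members, where 88% of all genes tested met this, and inside a fold of 1.25 for 40 of 69, where 33.7% did. The member outside was Atp5o. For the rest of the members the interval reached past a fold of 1.25, and for Atp5o it reached -0.85, so the data do not show that members were equal between genotypes.

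**Figure D1:**
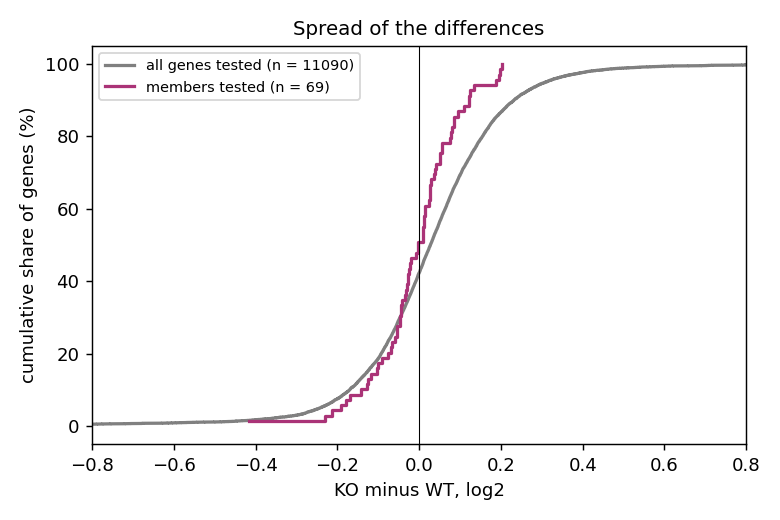
Cumulative share of genes (vertical axis, percent) by the KO minus WT difference on the log2 scale (horizontal axis, drawn from -0.8 to 0.8; some of all genes tested lie outside). The 69 tested members lie between -0.42 and 0.20, with a median of -0.0030, and the 11090 genes tested spread wider around 0.027.

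KO and WT did not overlap in 12 of 69 members (17.4%), 4 with KO above and 8 with KO below; over all genes tested the share was 14.8%, with 9.63% above and 5.16% below. The 8 with every KO mouse below every WT mouse were Atp5o, Ndufb9, Atp5l, Uqcrfs1, Ndufa10, Atp5a1, Uqcrc2 and Atp5g3, at -0.42 to -0.076. The 4 with every KO mouse above were Ndufab1, Atp5mpl, Ndufa1 and Atp5j, at 0.20 to 0.11. For single members the exact two-sided permutation test of 3 against 3 cannot go below 0.1, and these 12 were all at that value. The limma 95% interval of each of the 12 included 0.

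**Figure D2:**
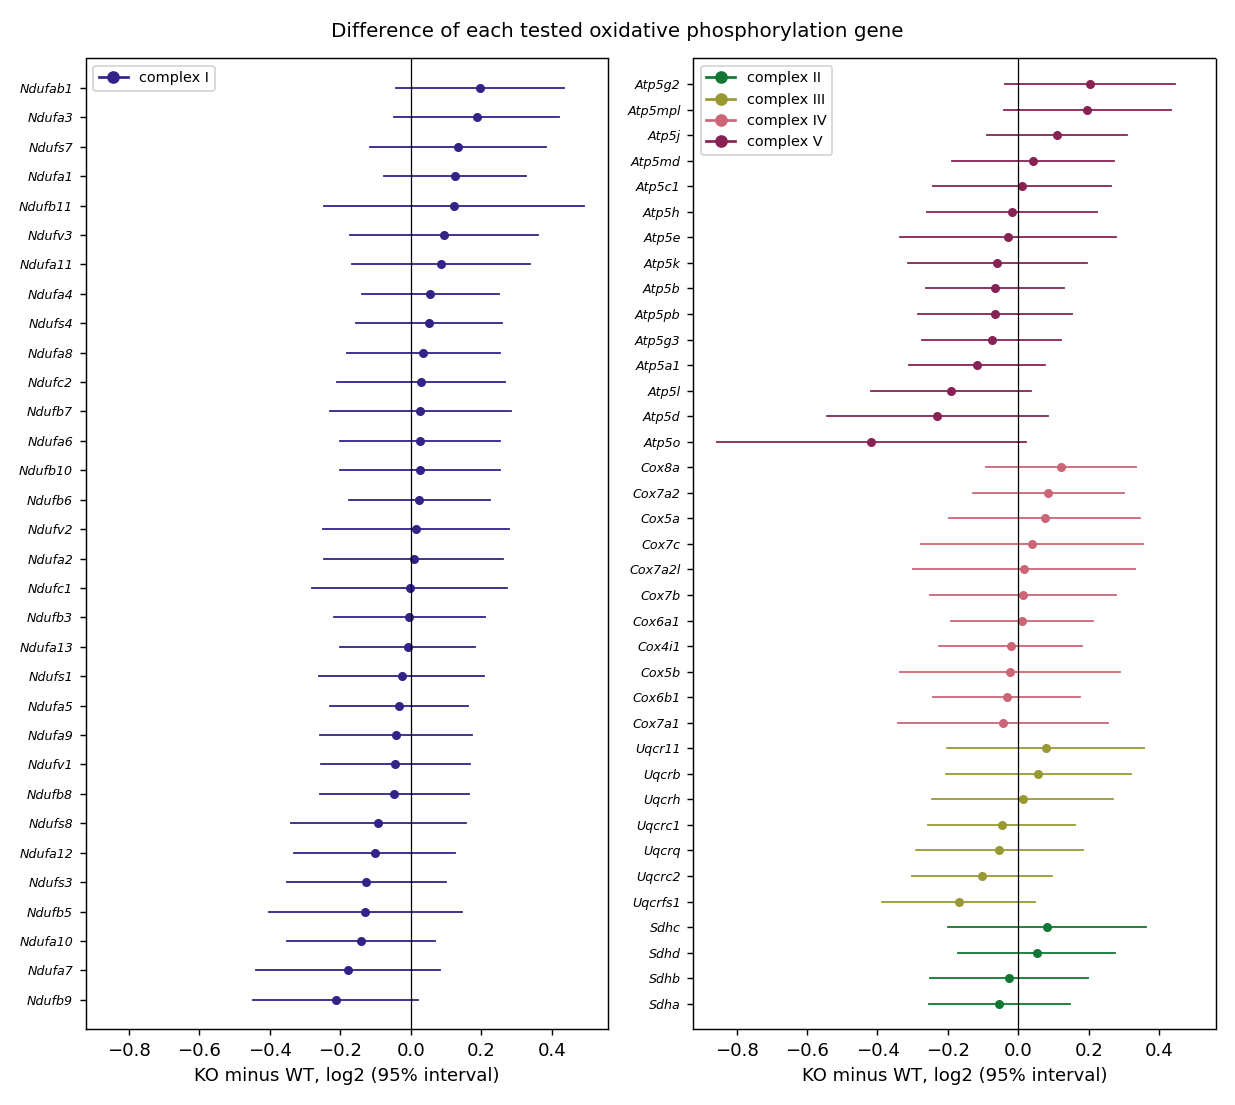
KO minus WT difference (horizontal axis, log2) of each of the 69 tested members, with complex I at the left and complexes II to V at the right; points are differences of means of 3 mice each and lines are limma's 95% intervals. Every interval includes 0, and Atp5o at -0.42 has the widest.

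Complex I, the NADH dehydrogenase, had a median difference of 0.011 over 32 tested members, 17 above 0 and 15 below, with a range of -0.21 to 0.20. KO and WT did not overlap in 4 of the 32 (12.5%), where 14.8% of all genes tested did not. The 6 tested core subunits, which carry the flavin and iron-sulphur clusters or border them, were at a median of -0.035: Ndufs3 was at -0.13, Ndufs8 at -0.092, Ndufv1 at -0.044, Ndufs1 at -0.026, Ndufv2 at 0.015 and Ndufs7 at 0.13. The 26 other members, mostly accessory subunits that surround the core, had a median of 0.025.

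Ndufb9, an accessory subunit of the membrane arm and the member of complex I with the smallest p, read 9.86, 10.01 and 9.997 in the WT animals 1 to 3, against 9.60, 9.78 and 9.85 in the KO animals 1 to 3. Every KO mouse was below every WT mouse, and KO mouse 1 was the lowest. The difference was -0.21 ± 0.10 (SE; limma adjusted p = 0.580), and -0.14 without KO mouse 1. Ndufb9 is also the complex I member with the highest mean signal.

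Ndufab1, the mitochondrial acyl carrier protein that is also a complex I subunit, measured 4.61, 4.86 and 4.84 in WT and 4.91, 4.93 and 5.06 in KO. Every KO mouse was above every WT mouse, with WT mouse 1 the lowest of all. The difference was 0.20 ± 0.10 (SE; limma adjusted p = 0.611), and 0.12 without WT mouse 1. Ndufa3, a small accessory subunit, measured 8.63, 8.82 and 8.67 in WT and 8.81, 8.85 and 9.03 in KO, a difference of 0.19 ± 0.10 (adjusted p = 0.621), and 0.12 without KO mouse 3. Its groups overlapped through WT mouse 2, which lay above KO mouse 1.

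The other members without overlap in complex I were Ndufa10 at -0.14 and Ndufa1 at 0.12, both accessory subunits. Ndufa4 carries a complex I name but is now assigned to complex IV; it was at 0.056 ± 0.086 (SE). Ndufa8 showed a difference between its probe sets: the one used was at 0.036, and a dimmer one was at -0.19. Ndufa11 likewise had 0.086 on the probe set used and -0.064 on the other, while Ndufa12 had -0.10 and -0.076.

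Complex II, succinate dehydrogenase, is the enzyme shared with the citric acid cycle and the only complex with no subunit encoded in mitochondrial DNA. Its 4 members had a median difference of 0.013, from -0.055 to 0.080. KO and WT overlapped in all 4, where 14.8% of all genes tested did not overlap. Sdha, the flavoprotein that oxidises succinate, measured 9.64, 9.69 and 9.73 in WT and 9.60, 9.60 and 9.70 in KO, a difference of -0.055 ± 0.088 (SE), which ran from -0.088 without KO mouse 3 to -0.035 without WT mouse 3. Sdhb, the iron-sulphur subunit, was at -0.027 ± 0.098.

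Sdhc and Sdhd anchor the enzyme in the membrane. Sdhc measured 7.12, 7.53 and 7.40 in WT and 7.43, 7.33 and 7.53 in KO, a difference of 0.080 ± 0.12 (SE). Sdhd measured 7.79, 8.02 and 7.99 in WT and 7.95, 8.002 and 8.01 in KO, a difference of 0.052 ± 0.098. In both genes WT mouse 1 was the lowest of the 6 mice and the other 5 lay between 7.33 and 7.53 for Sdhc and between 7.95 and 8.02 for Sdhd. Without that mouse both differences turned, to -0.034 for Sdhc and -0.020 for Sdhd.

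Complex III, the cytochrome bc1 complex, had a median difference of -0.047 over 7 tested members, with 3 above 0 and 4 below. Without KO mouse 1 that median turned to 0.030. Uqcrfs1, the Rieske iron-sulphur protein that hands electrons to cytochrome c1, measured 5.69, 5.73 and 5.76 in WT and 5.59, 5.43 and 5.64 in KO. The WT mice lay close together and every KO mouse was below them, with KO mouse 2 the lowest. The difference was -0.17 ± 0.095 (SE; limma adjusted p = 0.631), and -0.11 without KO mouse 2.

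Uqcrc2, a core protein of complex III, measured 8.09, 8.10 and 8.15 in WT and 8.02, 7.95 and 8.06 in KO, again without overlap, at -0.10 ± 0.087 (SE). Its partner Uqcrc1 was at -0.047 and overlapped. Uqcr11, a small subunit, measured 6.52, 6.26 and 6.58 in WT and 6.47, 6.70 and 6.42 in KO, a difference of 0.078 ± 0.12 with wide overlap. Uqcrb, the member of complex III with the highest mean signal, measured 10.17, 10.30 and 10.32 in WT and 10.26, 10.18 and 10.53 in KO, a difference of 0.056 ± 0.12. Uqcr11 was at -0.0087 without KO mouse 2 and Uqcrb at -0.048 without KO mouse 3.

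Complex IV, cytochrome c oxidase, had a median difference of 0.013 over 11 tested members, from -0.044 to 0.12. The genotypes overlapped in each of them, where 14.8% of all genes tested did not overlap. The 11 include Cox7a2l, listed among the members of other roles, at 0.015. Cox8a, the ubiquitous form of the smallest subunit, measured 9.22, 9.42 and 9.34 in WT and 9.40, 9.48 and 9.47 in KO. The KO mice were close together, and WT mouse 2 lay above KO mouse 1. The difference was 0.12 ± 0.093 (SE; limma adjusted p = 0.722), and 0.070 without WT mouse 1.

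Cox7a2, the liver form of subunit VIIa, measured 8.02, 8.002 and 8.07 in WT and 7.998, 8.18 and 8.17 in KO, a difference of 0.085 ± 0.094 (SE), with KO mouse 1 the lowest of all. Without KO mouse 1 it was 0.14, and without KO mouse 2 it was 0.053. Cox5a measured 7.80, 8.10 and 8.10 in WT and 7.97, 8.03 and 8.21 in KO, a difference of 0.075 ± 0.12 (-0.026 without WT mouse 1). Cox6a1, the liver form of subunit VIa and the complex IV member with the highest mean signal, measured 10.83, 10.97 and 10.88 in WT and 10.92, 10.90 and 10.89 in KO, a difference of 0.010 ± 0.088. Cox4i1, the form of subunit IV found in most tissues, was at -0.022 ± 0.089.

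Several complex IV subunits have forms made mainly in muscle, lung or testis. Of the 8 genes listed as tissue forms, 7 were below the signal filter: Cox4i2, Cox6a2, Cox6b2, Cox7b2, Cox8b, Cox8c and Ndufa4l2, with values in single mice from 1.59 for Cox7b2 to 2.99 for Cox6a2. Ndufa4l2 was on this list but was counted under complex I by its name, and where it is made was not analysed. Cox7a1, the heart and skeletal muscle form of subunit VIIa, passed just above the filter of 2.99. It measured 2.88, 3.14 and 3.28 in WT and 2.99, 3.23 and 2.95 in KO, a difference of -0.044 ± 0.13 (SE). Of the skeletal muscle markers, Ckm, Acta1 and Tnnt3 also passed the filter, at 0.053, -0.31 and 0.0020, while Myh4, Mb and Myl1 did not; their part in the Cox7a1 signal was not tested.

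Complex V, the ATP synthase, had a median difference of -0.060 over 15 tested members, 5 above 0 and 10 below. The genotypes were apart in 6 of the 15, 4 with KO below and 2 with KO above, where 14.8% of all genes tested were apart, 5.16% below and 9.63% above. Without KO mouse 1 the median was -0.0098 and without WT mouse 3 it was -0.013. In the catalytic F1 part with its connecting subunit, 5 of 6 members were below 0, at a median of -0.091. In the membrane Fo part with its stalk, 5 of 9 were below 0, at a median of -0.019. Over all genes tested 42.3% were below 0. The difference between complexes was not tested.

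Atp5o, the subunit that joins the catalytic head to the peripheral stalk, measured 4.14, 4.14 and 4.88 in WT and 3.92, 4.08 and 3.90 in KO. Every KO mouse was below every WT mouse, but WT mouse 3 stood apart from the other WT mice. The difference of -0.42 ± 0.19 (SE; limma adjusted p = 0.562), a fold of 0.749, was the lowest of all members; its 95% interval ran from -0.85 to 0.021. Without WT mouse 3 it was -0.17.

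Of the catalytic subunits, Atp5a1 (alpha) measured 9.78, 9.77 and 9.74 in WT and 9.64, 9.68 and 9.62 in KO, at -0.12 ± 0.085 (SE) without overlap. Atp5b (beta), the complex V member with the highest mean signal, measured 10.33, 10.27 and 10.33 in WT and 10.21, 10.25 and 10.29 in KO, at -0.065 ± 0.086, and overlapped through WT mouse 2 and KO mouse 3. Atp5d (delta) was at -0.23 ± 0.14 on the probe set used and at -0.034 on its other probe set, whose mean signals were 7.16 and 6.93. Atp5e (epsilon) was at -0.030 and Atp5c1 (gamma) at 0.010.

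**Figure D3:**
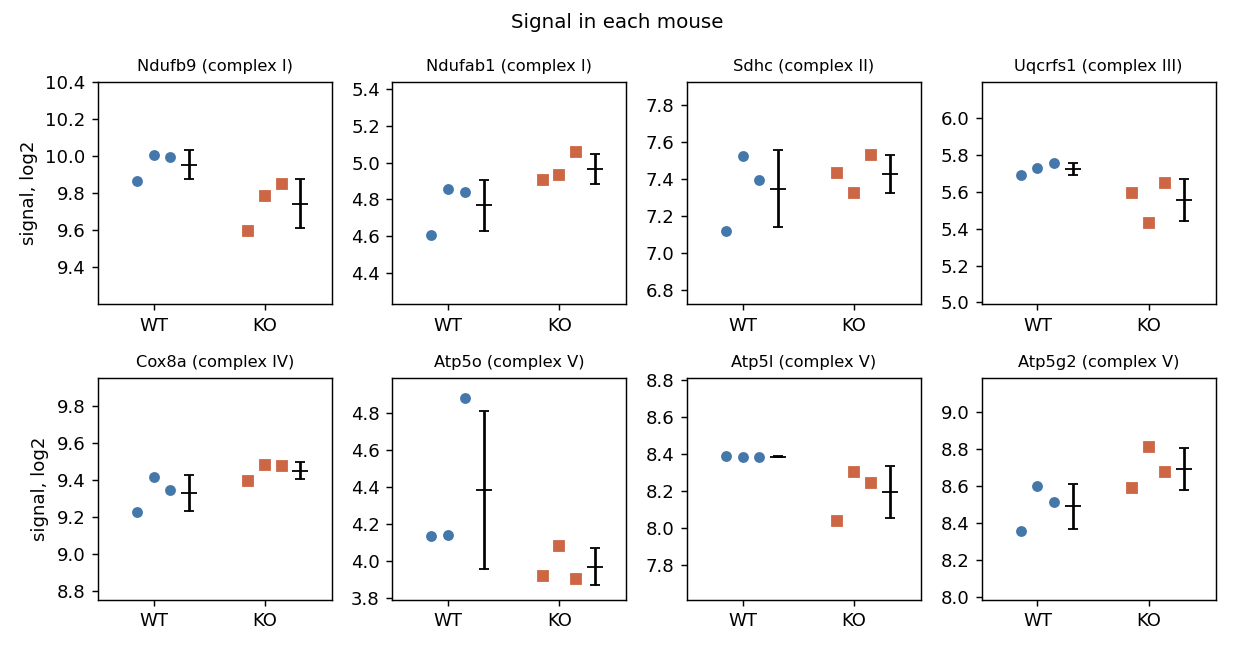
Log2 signal (vertical axis, each panel spanning 1.2 units) of 8 members in each mouse; circles are WT and squares KO, in the order of mouse 1 to 3, with mean and SD at the right of each group. Atp5l has WT values within 8.38 and 8.39 above all KO values, and the WT mean of Atp5o includes mouse 3 at 4.88.

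In the membrane part, Atp5l (subunit g) measured 8.39, 8.39 and 8.38 in WT and 8.04, 8.30 and 8.25 in KO. The WT mice were almost equal, every KO mouse was below them, and KO mouse 1 was the lowest; the difference was -0.19 ± 0.10 (SE; limma adjusted p = 0.605), and -0.11 without KO mouse 1. Atp5g2, 1 of the genes for the proton-carrying c ring, measured 8.36, 8.60 and 8.52 in WT and 8.59, 8.81 and 8.68 in KO. KO mouse 1 lay just below WT mouse 2, so the groups overlapped; the difference of 0.20 ± 0.11 (adjusted p = 0.609) was the highest of all members, and its other probe set gave 0.094.

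The c ring is encoded by several genes with separate probe sets. Atp5g3 was at -0.076 ± 0.086 (SE), with every KO mouse below every WT mouse. Atp5g1 was below the filter, at 2.27 to 2.86. Atp5mpl, a small subunit of the membrane part, was at 0.20 ± 0.10 and Atp5j, a stalk subunit, at 0.11 ± 0.087, both with every KO mouse above every WT mouse. The stalk subunits Atp5pb and Atp5h were at -0.068 and -0.019, and Atp5md and Atp5k at 0.041 and -0.060.

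The lowest and the highest values of the members lay mostly in a few mice of both genotypes. Of the 69 tested members, 24 had their lowest value in WT mouse 1 (34.8%) and 26 in KO mouse 1 (37.7%), where 27.6% and 17.7% of all genes tested did. None had its highest value in KO mouse 1, where 14.1% of all genes tested did. WT mouse 3 held the highest value of 26 members (37.7%) and KO mouse 3 that of 19 (27.5%), where 13.9% and 25.6% of all genes did. For KO mouse 3 the members were thus close to all genes. Such counts were also taken after median centring, not given here, and after quantile normalization, a step added after seeing the data. With quantile normalization, WT mouse 1 was lowest in 15 members and KO mouse 1 in 23. KO mouse 1 was highest in 1, WT mouse 3 in 26 and KO mouse 3 in 10. The shares of all genes tested were not taken after quantile normalization, so these counts cannot be set against them.

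The median deviation of the members from their own 6-mouse means was -0.052, 0.020 and 0.052 for the WT animals, numbered 1 to 3, against -0.067, 0.00015 and 0.058 for the KO animals. All genes tested moved by -0.050, 0.021 and -0.011 in WT and -0.011, 0.0095 and 0.039 in KO. Relative to all genes, the members were therefore highest in WT mouse 3, by 0.062, and lowest in KO mouse 1, by -0.056, and within 0.019 in the other 4 mice. All complexes lay below all genes tested in KO mouse 1, by -0.028 for complex II to -0.077 for complex IV, and above them in WT mouse 3, by 0.037 for complex IV to 0.092 for complex III. Markers of several cell types also deviated in these 2 mice, but not only there. Kupffer cell genes had a median deviation of 0.42 in KO mouse 3 and stellate cell genes one of 0.26 in WT mouse 2. Adipocyte genes were at -0.79 in KO mouse 2 and bile duct genes at -0.31 in WT mouse 1. For KO mouse 1 and WT mouse 3 the median deviation of each list with tested genes follows. In KO mouse 1 it was -0.026 for 8 hepatocyte genes, -0.17 for 10 Kupffer cell genes, 0.10 for 8 sinusoidal endothelial genes, 0.10 for 8 stellate cell genes, 0.25 for 2 bile duct genes, 0.42 for 3 adipocyte genes, -0.037 for 3 skeletal muscle genes and 0.0078 for the 1 lymphocyte gene. In WT mouse 3 it was -0.0036, -0.18, -0.14, 0.089, -0.15, -0.28, -0.077 and -0.13 in the same order. No neutrophil or erythroid gene was among those tested. The part of these cell types in the members' pattern was not tested.

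**Figure D4:**
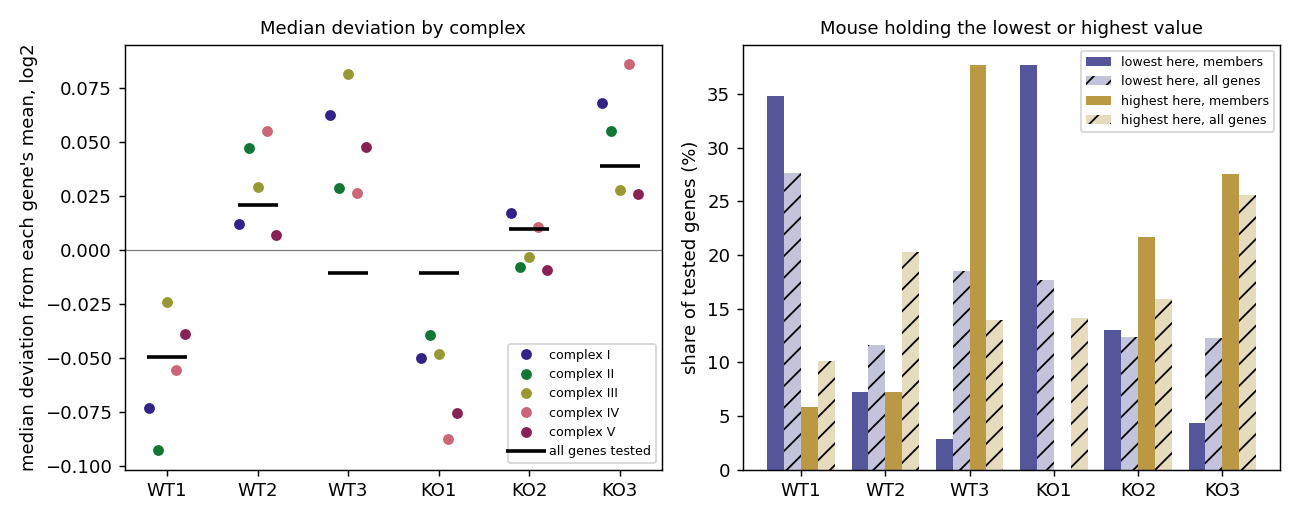
Left, median deviation from each gene's 6-mouse mean (vertical axis, log2) in each mouse for complexes I to V (points) and all genes tested (black bars); right, share of genes (percent) with their lowest or highest value in each mouse, for the 69 members (solid) and all genes tested (hatched). WT mouse 1 holds the lowest value of 34.8% of the members and KO mouse 1 that of 37.7%, beside 27.6% and 17.7% of all genes tested. WT mouse 3 holds the highest value of 37.7% of the members, beside 13.9% of all genes tested.

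Some members could not be read well from this array. The 12 members below the filter were the 7 tissue forms above, Atp5g1, Atp5j2, Ndufs5 and the pseudogenes Uqcrh-ps1 and Atp5c1-ps, and their highest value in any mouse was 2.99. For Ndufs5, an accessory subunit of complex I, the single-symbol probe set lay at 1.84 to 2.24, while a probe set shared with its pseudogene, outside the rule, lay at 5.78 to 6.13 and differed by -0.17. Other probe sets with several symbols gave -0.12 for Ndufs6 with Ndufs6b on each of its probe sets, -0.13 and -0.094 for Cox6c with Gm6265, -0.079 for Uqcrb with Gm10767, -0.042 for Ndufb2 with Adck2 and -0.033 for Uqcr10 with Gm6293. Those above 0 were Ndufb4 with Ndufb4b and Ndufb4c at 0.058 and Ndufs1 with Ino80dos, whose signal lay under the filter, at 0.042. Subunits have processed pseudogenes in many places of the genome, and signal from near-identical copies cannot be separated by such probes.

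Other genes of the pathway serve the chain without being members. Of 17 tested genes for ubiquinone synthesis, the cytochromes c and c1 and the electron transfer flavoproteins, 0 passed the adjusted threshold in limma and 1 had an unadjusted p under 0.05 as higher: Pdss2, which makes the ubiquinone side chain, at 0.31 ± 0.13 (SE). Of 49 tested assembly factors of complexes I to V, 0 passed and 1 had an unadjusted p under 0.05 as lower, Foxred1 of complex I at -0.30 ± 0.12; the median of the 49 was -0.0039. Over all genes tested, 6.16% had such a p as higher and 2.98% as lower. The factors of smallest p for the other complexes were Sdhaf3 at 0.23, Ttc19 at 0.19, Lrpprc, which stabilises mitochondrial mRNAs, at 0.18 and Atpaf2 at -0.19.

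Among 17 regulators of mitochondrial biogenesis, 0 passed the adjusted threshold in limma. An unadjusted p under 0.05 was held by 2 of the 17, 1 in each direction, where 9.13% of all genes tested had one. Tfb2m, a factor that opens mitochondrial promoters for transcription, measured 5.59, 5.81 and 5.81 in WT and 5.13, 5.29 and 5.49 in KO. No KO mouse reached the lowest WT mouse; the difference was -0.43 ± 0.12 (SE; adjusted p = 0.347). Ppargc1b, a coactivator of mitochondrial and lipid genes, measured 3.11, 3.41 and 3.14 in WT and 3.65, 3.41 and 3.69 in KO. KO mouse 2 and WT mouse 2 were almost equal, and the difference was 0.36 ± 0.12 (adjusted p = 0.423). Tfam, which packs mitochondrial DNA, was at 0.23 ± 0.13 and did not pass.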

How the data were processed

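Liver RNA of 6 mice was measured on Affymetrix whole-transcript arrays, from 100 ng of total RNA per the labels' protocols. The authors deposited log2 values for 41345 probe sets; this scale was inferred from their range, and methods for summarising and normalizing the probes were not given in the sources used here. All columns were matched to a mouse. Of the probe sets, 23521 had 1 gene symbol, 1814 several and 16010 none; only the first were used, with symbols updated to GRCm38.p6, and the members' rule was applied to the platform symbol. Genes at or above a mean of 2.99 were tested with limma (version 3.58.1, R version 4.3.3; linear fits with eBayes, KO minus WT, two-sided, Benjamini-Hochberg over 11090 genes, threshold 0.05). The fit was tested on simulated data. Array background compresses differences between weak signals, and precision is limited by having 3 mice per group.

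Members and lists were chosen with earlier results of these data known. Named with values in each mouse were, per complex, the members with unadjusted p under 0.05 or else the 3 of smallest p, the member of highest mean signal, and the largest difference in each direction; in the other lists, genes with unadjusted p under 0.05 or else that of smallest p. Others were named after their values were seen. Same-numbered mice were compared: their deviations from group means correlated at 0.055, -0.19 and 0.15 over all genes tested, so the numbers were not taken as pairs. Alternatives covered the signal filter, probe set choice, normalization, eBayes options, array weights, an offset of 16, the mouse number as a block, members of other roles and each mouse left out.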

Additional observations from a re-analysis of the deposited data

How the results depend on the processing

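Under all 16 alternatives 0 members passed the adjusted threshold. In the main fit 0 members had an unadjusted limma p under 0.05. Median centring gave 1, lower in KO (Atp5o), where 7.78% of all genes tested had such a p. Trend and robust options gave 1, lower in KO (Ndufb9), where 9.02% did. Quantile normalization gave 2, both lower in KO (Ndufb9, Uqcrfs1), where 9.72% did. The offset of 16 gave 2 higher and 2 lower in KO, where 9.68% did. With a mouse left out, 0 to 1 members with such a p were higher in KO and 0 to 2 lower. The share of all genes tested was then 6.95% to 9.22%. With the mouse number as a replicate block 1 member, Atp5d at -0.23, was lower in KO (limma unadjusted p = 0.0483, adjusted p = 0.522), where 9.48% of all genes tested had such a p. The block changed no adjusted call among the members. Medians with a mouse left out ran from -0.034 to 0.030 for all members, -0.031 to 0.050 for complex I, -0.027 to 0.059 for II, -0.079 to 0.030 for III, -0.021 to 0.060 for IV and -0.086 to -0.0098 for V. Of the 268 values of named members under alternatives, 259 kept their direction and side of the threshold and 9 turned sign without passing: Cox6a1 at -0.0042 (median centring), -0.025 (quantile normalization) and -0.021 (without WT mouse 1); Uqcr11 at -0.0087 (without KO mouse 2) and -0.019 (without WT mouse 2); Uqcrb at -0.048 (without KO mouse 3); and Cox5a, Sdhc and Sdhd at -0.026, -0.034 and -0.020 (without WT mouse 1). With a mouse left out, these genes reached at most 0.13 for Cox5a, 0.048 for Cox6a1, 0.17 for Sdhc, 0.096 for Sdhd, 0.14 for Uqcr11 and 0.13 for Uqcrb. Over all genes tested, 4 passed the adjusted threshold in limma, 51 without WT mouse 3 and 0 in the upper 25% of signal, where 567 of 5545 genes had an unadjusted p under 0.05; the other alternatives gave 1 to 6. The causes were not tested. Signals near the filter limit what a difference can show.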
